A study of Mus musculus with 6 samples.

Results

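A set of 10 genes that mark undifferentiated spermatogonia, the stem and progenitor cells of the male germline, was followed in whole testes with and without the kinesin KIFC1. They were Zbtb16, Gfra1, Ret, Id4, Etv5, Nanos2, Sall4, Lin28a, Neurog3 and Lhx1. These genes were found among 51826 listed genes by matching Ensembl identifiers to GENCODE release M21, and all 10 were present, each protein-coding, with coordinates in mm10. The samples were testes of 8-week-old C57BL/6J mice, 3 wild-type and 3 KIFC1 knockout, measured by bulk RNA sequencing. The labels give no treatment, and they do not say how the knockout was made, whether it affects every cell or whether each sample is 1 animal. The title places KIFC1, a kinesin motor, in meiotic recombination and male fertility. These markers belong to cells that have not yet entered meiosis.

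None of the 8 markers that could be tested passed the test for a difference between knockout and wild type. Of all genes tested, 8.23% did. Lhx1 and Lin28a had the lowest knockout levels relative to wild type, 0.525 and 0.593 times. For both, every knockout sample lay below every wild-type sample, as it did for 18.1% of all genes tested. Zbtb16, Id4, Etv5, Sall4 and Ret had overlapping groups and fitted folds from 0.884 to 1.15. Gfra1 was low in 1 knockout sample only. Nanos2 and Neurog3 had at most 7 counts in any library and were too scarce to test.

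Spermatogonial stem cells sit on the basement membrane of the seminiferous tubule and keep sperm production going by renewing themselves and by giving rise to progenitors. Sertoli and peritubular myoid cells secrete the growth factor GDNF. GDNF binds the membrane-anchored co-receptor GFRA1, which brings in the receptor tyrosine kinase RET, and the signal maintains a set of transcription factors that includes ETV5 and LHX1. Progenitors lose GFRA1, gain NEUROG3 and LIN28A, and then respond to retinoic acid and begin to express KIT.

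The labels were checked first on the targeted gene. Kifc1 (chr17:33875659-33890661, minus strand of mm10, a protein-coding gene) measured 15.5, 16.1 and 14.7 counts per 1000000 counts (CPM) in wild type 1, 2 and 3, against 0.326, 0.737 and 0.282 CPM in knockout 1, 2 and 3. Its log2 fold change, knockout over wild type throughout, was -5.09 (SE 0.35, adjusted p = 0.00378 in edgeR's quasi-likelihood test). The libraries held 29274603 to 38703606 counts, so 3 counts, the upper limit that a count of 0 allows, correspond to 0.0763 to 0.0986 CPM. Mitochondrial genes took 0.661% to 0.935% of the counts in wild type and 1.54% to 5.74% in knockout. The rank correlation between a gene's level relative to its mean over the samples and its GC content ran from 0.27 to 0.53 in wild-type libraries and from -0.68 to -0.13 in knockout libraries. The trend with GC content therefore differs between the groups, and values are also given with trends removed. That is, offsets were used for how each library's counts vary with the GC content and exon length of a gene. The trend splits the samples as genotype does, and the offsets were fitted to each library without regard to genotype. They can therefore also remove part of a genotype difference, and the trend and genotype cannot be told apart here.

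Of 21518 genes tested, 8.23% were called at an adjusted p under 0.05, with 3.11% higher and 5.12% lower in knockout. DESeq2 gave an adjusted p for 17855 genes and called 18.3% of them, with 8.42% higher and 9.92% lower. Of the 8 markers tested, edgeR called 0 and DESeq2 called 0. At an unadjusted p under 0.05, 2 of 8 markers passed, both lower in knockout, against 27.1% of all genes tested in either direction, 12.1% higher and 15% lower. The same 2 markers, Lhx1 and Lin28a, had groups that did not overlap, against 32.7% of all genes tested in either direction and 18.1% lower in knockout. The shares among the markers were thus near those of all genes. The median log2 fold change of the 8 was -0.05, with 4 positive and 4 negative, and that of all genes tested was -0.01. With the trends removed the medians were 0.02 and 0.01.

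**Figure D1:**
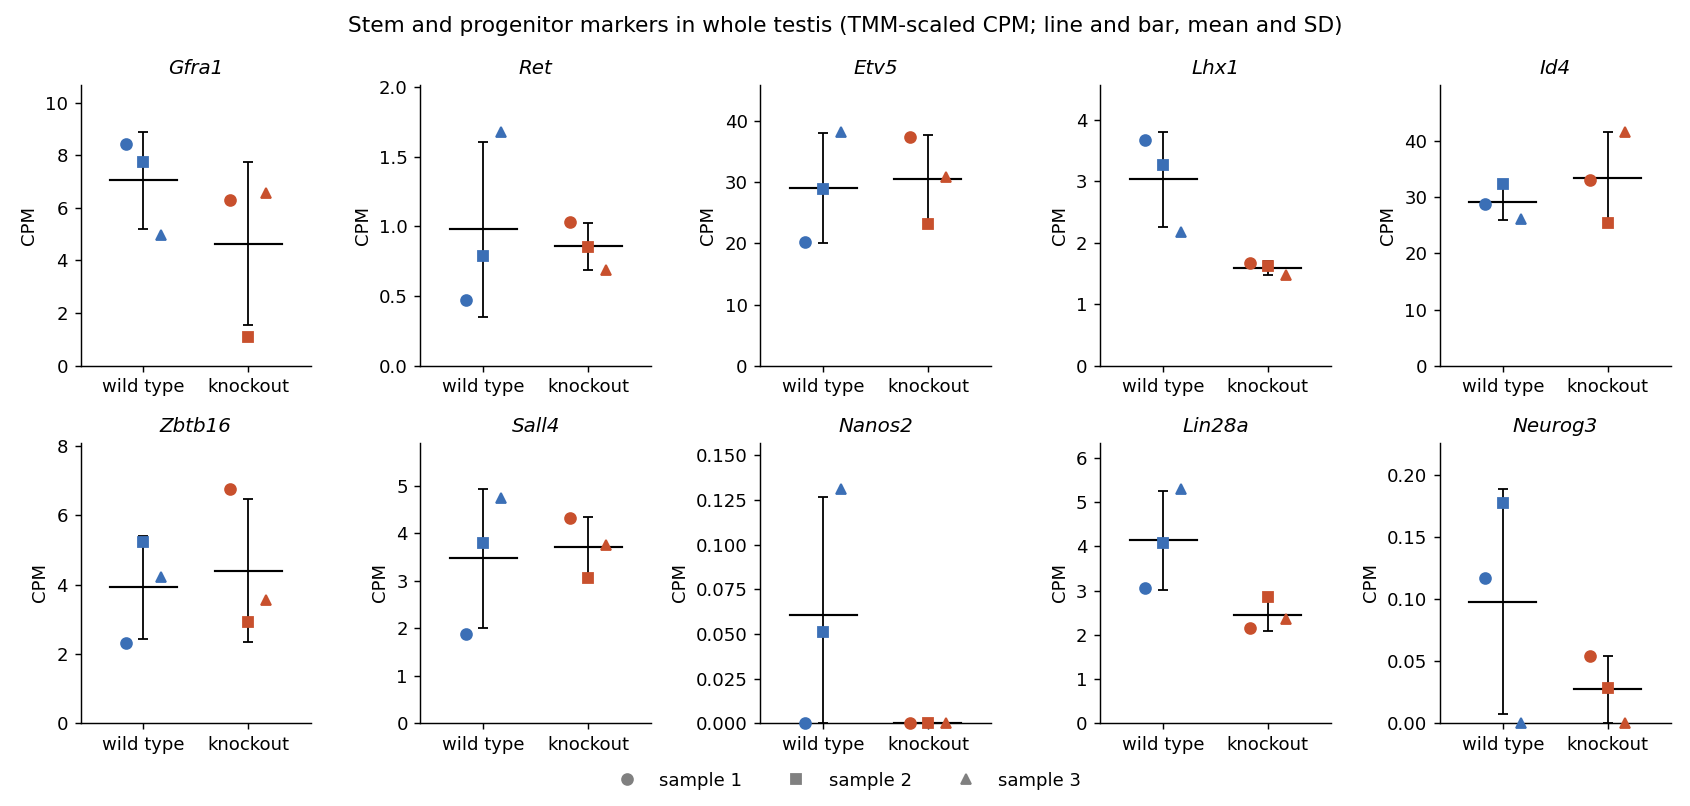
TMM-scaled CPM (vertical axes, linear from 0) of the 10 markers in each of 3 wild-type (blue) and 3 knockout (orange) samples, with a line at the mean and a bar of 1 SD to each side, ended at 0. The groups are apart for Lhx1 and Lin28a, and in the Gfra1 panel knockout 2 stands alone at 1.08 CPM.

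Stretches before the RefSeq start of 3 of these genes are shown, because these 3 had the most negative log2 fold changes among the 8. They come from RefSeq on GRCm38.p6, the assembly that mm10 names, and an entry was matched for 7 of the 10 markers. Windows of 250 bases before the start were searched on both strands for the E-box CANNTG, bound by basic helix-loop-helix factors such as NEUROG3, for the ETS motif CCGGAA, bound by the family of ETV5, and for TAATTA, bound by homeobox factors including the family of LHX1. Only bases outside every GENCODE exon are printed, and capitals mark motif letters. The Gfra1 stretch is chr19:58455399-58455460, that of Lhx1 chr11:84525536-84525659 and that of Lin28a chr4:134018842-134019066, and each reads along the minus strand. The Lhx1 and Lin28a stretches lie just before the GENCODE gene, whereas the Gfra1 stretch lies inside the GENCODE gene, which has an exon of an alternative transcript further upstream.
Gfra1: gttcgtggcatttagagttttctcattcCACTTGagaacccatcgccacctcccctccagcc
Lhx1: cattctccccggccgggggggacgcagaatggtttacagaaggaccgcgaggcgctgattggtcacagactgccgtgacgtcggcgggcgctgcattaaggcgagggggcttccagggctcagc
Lin28a: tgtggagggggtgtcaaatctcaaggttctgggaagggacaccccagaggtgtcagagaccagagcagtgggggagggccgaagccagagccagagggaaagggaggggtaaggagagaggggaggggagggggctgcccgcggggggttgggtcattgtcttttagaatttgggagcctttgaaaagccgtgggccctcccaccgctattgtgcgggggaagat
The whole Gfra1 window held 3 E-boxes and 1 ETS match, of which 1 E-box lies in the printed stretch. Those of Lhx1 and Lin28a held 0 matches to any of the 3 motifs. Over 32851 windows of the same length, 66.2% held at least 1 E-box, 12% the ETS motif and 4.84% TAATTA. Holding an E-box is thus common, and the share of windows with 3 or more was not counted. GC content was 52.4% in the Gfra1 window, 64.8% in that of Lhx1 and 61.2% in that of Lin28a, with a median of 52.4% over all windows.

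Among the receptors, Gfra1 (ENSMUSG00000025089, chr19:58235604-58455909, minus strand), the GDNF co-receptor that marks the most stem-like spermatogonia, measured 8.43, 7.76 and 4.96 CPM in wild type 1, 2 and 3 and 6.28, 1.08 and 6.57 CPM in knockout 1, 2 and 3. Knockout 1 and 3 lay inside the wild-type range, and knockout 2, with 38 counts, lay far below it. The means were 7.05 ± 1.84 and 4.64 ± 3.09 CPM (SD, n = 3 each), with a log2 fold change of -0.61 (SE 0.55, 95% interval -1.84 to 0.63, with an edgeR adjusted p of 0.514). Without knockout 2 the log2 fold change was -0.14 (edgeR adjusted p = 0.765). The knockout spread was 66.6% of the mean, against 7.91% from counting alone. Knockout 2 also had the most negative rank correlation with GC content, -0.68. With trends removed, Gfra1 kept a log2 fold change of -0.50 (SE 0.53). Gm16277, an antisense gene over 416 bases of Gfra1 exon, had 8 counts in knockout 2 and 0 elsewhere.

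Ret (ENSMUSG00000030110, chr6:118151745-118197718, minus strand), the tyrosine kinase that signals for GDNF, was at 0.47, 0.789 and 1.68 CPM in wild type and 1.03, 0.851 and 0.688 CPM in knockout. All 3 knockout samples lay within the wild-type range, whose highest value was wild type 3. The log2 fold change was -0.18 (SE 0.48, 95% interval -1.27 to 0.91, with an edgeR adjusted p of 0.846). Each library held 16 to 51 Ret counts. At the mean count of each group, counting alone gives 17.5% error in wild type and 18.3% in knockout, and more in libraries with fewer counts. Ret did not share the low value of Gfra1 in knockout 2, where there were 78.9 units of Ret per 100 of Gfra1, in CPM, against 5.57 to 33.8 in the other 5 samples. Both wild type 3 and knockout 2 stood high in this ratio. Wild type 3 had the highest Ret and the lowest wild-type Gfra1, and knockout 2 had the lowest Gfra1.

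Of the transcription factors that GDNF maintains, Lhx1 (ENSMUSG00000018698, chr11:84518284-84525535, minus strand), a LIM homeobox factor, stood at 3.67, 3.26 and 2.17 CPM in wild type, against 1.68, 1.62 and 1.47 CPM in knockout. Every knockout sample was lower than every wild-type sample, and the knockout samples lay close together. The means were 3.03 ± 0.775 and 1.59 ± 0.109 CPM (SD, n = 3 each), and the knockout spread of 6.86% was below the 13.4% that counting alone gives. The log2 fold change was -0.93 (SE 0.28, 95% interval -1.57 to -0.29), with an unadjusted p of 0.00918 that became 0.0744 after adjustment in the edgeR fit over all genes. DESeq2 gave an adjusted p of 0.0561. With trends removed the log2 fold change was -0.67 (edgeR adjusted p = 0.208). Lhx1 thus missed the threshold in both tools, and over all 15 alternatives the log2 fold change ran from -1.12 to -0.64 with adjusted p from 0.0561 to 0.367.

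Lhx1 did not follow Gfra1 within the knockout group. There were 43.6, 42 and 43.7 units of Lhx1 per 100 of Gfra1 in wild type 1, 2 and 3, and 26.8, 150 and 22.4 in knockout 1, 2 and 3. At the mean wild-type count, counting alone gives 9.7% error for Lhx1 and 6.35% for Gfra1. The wild-type ratios were closer together than that, so their closeness cannot be taken as a constant. Knockout 1 and 3 were below and knockout 2 above all wild-type samples. The ratio was given no test.

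Etv5 (ENSMUSG00000013089, chr16:22381309-22439719, minus strand), an ETS factor needed for stem cell self-renewal that Sertoli cells express too, was at 20.2, 28.8 and 38.2 CPM in wild type and 37.4, 23.1 and 30.8 CPM in knockout. The groups covered nearly the same range. The means were 29.1 ± 9.01 and 30.5 ± 7.14 CPM (SD, n = 3 each), with a log2 fold change of 0.07 (SE 0.26, 95% interval -0.52 to 0.66, with an edgeR adjusted p of 0.895). The fold therefore lay between 0.695 and 1.58 at 95% confidence, although each library held at least 688 Etv5 counts. The spread between wild-type samples was 31% of the mean, against 3.17% from counting alone.

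Id4 (ENSMUSG00000021379, chr13:48261228-48266026, plus strand) encodes a helix-loop-helix protein without a DNA-binding region that holds back basic helix-loop-helix factors and marks the most stem-like cells. Its levels were 28.8, 32.3 and 26.1 CPM in wild type and 33.1, 25.4 and 41.6 CPM in knockout. Knockout 1 lay just above the wild-type range, knockout 3 well above it and knockout 2 just below it. The log2 fold change was 0.20 (SE 0.20, 95% interval -0.26 to 0.66, with an edgeR adjusted p of 0.569). With trends removed it was 0.01. Of the 8 markers, 3 had an interval that stayed within 2-fold in both directions, namely Id4, Etv5 and Sall4.

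The zinc-finger factor Zbtb16 (ENSMUSG00000066687, chr9:48654297-48836222, minus strand), also known as PLZF and required to keep the stem cell pool, was at 2.32, 5.22 and 4.21 CPM in wild type and 6.74, 2.92 and 3.54 CPM in knockout. Knockout 1 was the highest of the 6 and wild type 1 the lowest, with the other samples between them. The log2 fold change was 0.17 (SE 0.39, 95% interval -0.72 to 1.06, with an edgeR adjusted p of 0.819). Without knockout 1 it was -0.28 and without wild type 1 it was -0.08.

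Sall4 (ENSMUSG00000027547, chr2:168748332-168767943, minus strand), a zinc-finger factor that works beside ZBTB16, was at 1.88, 3.79 and 4.73 CPM in wild type and 4.32, 3.06 and 3.75 CPM in knockout. All 3 knockout samples lay within the wild-type range. The log2 fold change was 0.10 (SE 0.34, 95% interval -0.68 to 0.88, with an edgeR adjusted p of 0.88), and it was -0.17 without wild type 1 and -0.02 without knockout 1.

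Nanos2 (ENSMUSG00000051965, chr7:18987400-18988962, plus strand), an RNA-binding protein that holds stem cells undifferentiated, had 0, 2 and 4 counts in wild type and 0 in each knockout library. Only wild type 3, at 0.131 CPM, was above the 3-count floor. Gm45058 shares 766 bases with Nanos2, 49% of its exon length, and had 4 counts in the same library and 0 elsewhere. No difference was detectable at this depth, and the fit without an expression filter gave an adjusted p of 0.328 with edgeR.

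Lin28a (ENSMUSG00000050966, chr4:134003330-134018841, minus strand) encodes an RNA-binding protein of progenitors that blocks maturation of let-7 microRNAs. It measured 3.05, 4.07 and 5.29 CPM in wild type and 2.15, 2.86 and 2.35 CPM in knockout. The highest knockout sample lay just under the lowest wild-type sample. The means were 4.14 ± 1.12 and 2.45 ± 0.37 CPM (SD, n = 3 each), with a log2 fold change of -0.75 (SE 0.28, 95% interval -1.38 to -0.13). The unadjusted p of 0.0236 became 0.121 after adjustment in edgeR, and DESeq2 gave 0.101. With trends removed the log2 fold change was -0.62 (edgeR adjusted p = 0.211). Over the 15 alternatives it stayed negative, from -0.91 to -0.54.

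The ratio of Lin28a to Sall4, from their CPM, was lower in every knockout sample than in any wild-type sample. There were 163, 107 and 112 units of Lin28a per 100 of Sall4 in wild type and 49.7, 93.5 and 62.5 in knockout. Per 100 of Zbtb16 the values were 132, 78 and 126 in wild type and 31.9, 98.1 and 66.4 in knockout, where knockout 2 lay inside the wild-type range. Neither ratio was tested. Lin28a alone already had groups that did not overlap, so the separation of its ratio to Sall4 is no separate observation.

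Neurog3 (ENSMUSG00000044312, chr10:62133090-62134763, plus strand), a basic helix-loop-helix factor of progenitors about to differentiate, had 4, 7 and 0 counts in wild type and 2, 1 and 0 in knockout. Both groups included a library at 0, and only wild type 1 and 2, at 0.117 and 0.178 CPM, were above the floor. The fit without a filter gave an adjusted p of 0.543 with edgeR. Fam241b overlaps 273 bases of its exons, 16.3%, and had 173 to 227 counts in wild type and 83 to 112 in knockout. The strand setting of the counting is not known, so reads over shared bases cannot be assigned with certainty. Of the 10 markers, 6 share exon bases with another annotated gene. For Id4, A330033J07Rik covers 82 bases and had 0 to 25 counts. Gm49291 covers 171 bases (4.44%) of Id4 and was not among the listed genes, so it has no counts. For Sall4 and Lin28a the overlapping genes had at most 5 counts in any library.

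**Figure D2:**
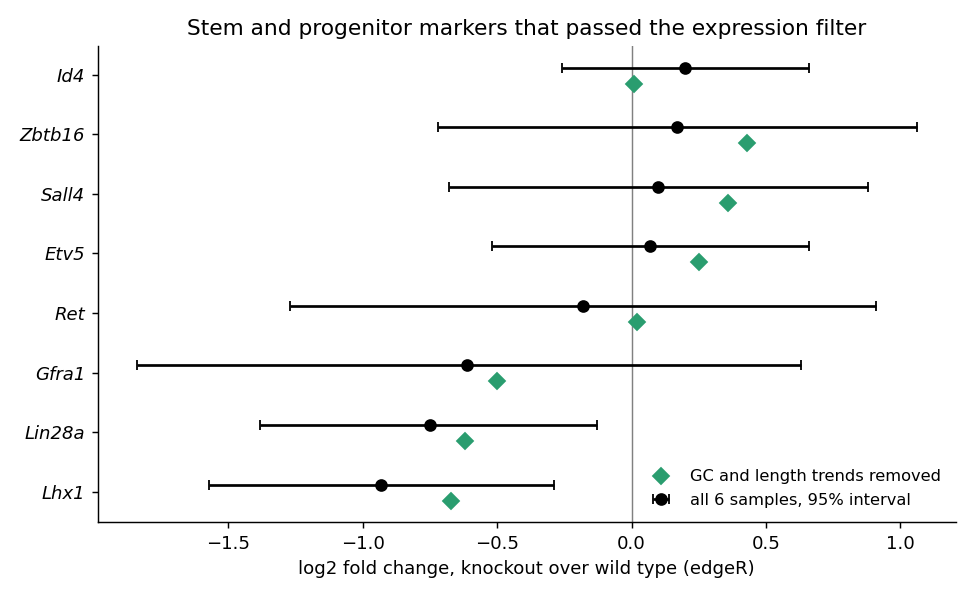
Log2 fold change of each tested marker, knockout over wild type (horizontal axis), with its 95% interval, from the fit to all 6 samples and with trends in GC content and exon length removed. The intervals of Lhx1 (-1.57 to -0.29) and Lin28a (-1.38 to -0.13) exclude 0 before adjustment, and the others include it.

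Per length of exon the markers formed tiers. In CPM per kilobase of exon, Id4 stood at 7.55 ± 0.812 and Etv5 at 7.08 ± 2.2 in wild type (SD, n = 3), with overlapping values. Gfra1 followed at 1.29 ± 0.336, Lin28a at 1.04 ± 0.28, Lhx1 at 0.745 ± 0.19, Zbtb16 at 0.741 ± 0.278 and Sall4 at 0.626 ± 0.263, and each overlapped its neighbour. Ret lay below these at 0.145 ± 0.0924, apart from Sall4 but overlapping Neurog3. Neurog3 at 0.0589 ± 0.0541 and Nanos2 at 0.0389 ± 0.0424 came last. Neighbours in this order failed to overlap only between Etv5 and Gfra1 and between Sall4 and Ret. In knockout, Id4 at 8.67 ± 2.1 and Etv5 at 7.42 ± 1.74 CPM per kilobase again led, and Lhx1 at 0.391 ± 0.0268 stood under Sall4 at 0.671 ± 0.114.

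No knockout library was low in all markers. Knockout 1 lay above the wild-type range in 2 of the 8 tested markers (Zbtb16 and Id4), below it in 2 (Lin28a and Lhx1) and within it in 4. Knockout 2 was below in 4 (Gfra1, Id4, Lin28a and Lhx1), above in 0 and within in 4. Knockout 3 was above in 1 (Id4), below in 2 (Lin28a and Lhx1) and within in 5. Summed over the 10 markers, the level ran from 68.93 to 87.45 CPM in wild type and from 60.99 to 92.74 CPM in knockout, with overlap. Id4 and Etv5 make up most of this sum. In bulk tissue, fewer cells of a type and less RNA per cell cannot be told apart.

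The marker sums of other cell types also differed between these samples. The summed level of spermatid markers, led by Prm2, was 14850 to 16880 CPM in wild type and 9841 to 11370 CPM in knockout, without overlap. The protamine and transition protein genes Prm1, Prm2, Tnp1 and Tnp2 carry this sum, and of the 7 listed genes 2 were called lower (Prm1 and Tnp2) and 0 higher by edgeR, against 4 lower and 1 higher by DESeq2. Acrv1 of the same list lay higher in every knockout sample, with 113 ± 5.14 and 160 ± 16 CPM (SD, n = 3 each) and an adjusted p of 0.0587 in edgeR and 0.0152 in DESeq2, and Spaca1 had a log2 fold change of 0.16 (SE 0.18). Sertoli markers, led by Clu, summed to 821.1 to 1183 CPM in wild type and 1094 to 1717 CPM in knockout, and Leydig markers, led by Insl3, to 597 to 1299 and 972.7 to 1509 CPM. Of 10 Sertoli markers edgeR called 1 higher, Rhox8, with a log2 fold change of 1.01 (edgeR adjusted p = 0.0161). Among the 10, 7 log2 fold changes were positive and 3 negative. DESeq2 called 3 Sertoli and 2 of 6 Leydig markers higher and 0 lower. Its shares over all genes were 8.42% higher and 9.92% lower. Peritubular myoid markers, led by Acta2, summed to 90.07 to 167 and 121.5 to 186.6 CPM. Macrophage markers, led by Mrc1, summed to 32.59 to 70.85 and 49.68 to 73.4 CPM, and endothelial markers, led by Vwf, to 26.13 to 52.58 and 40.8 to 51.02 CPM. Wild type 1 had the lowest sum of the 6 samples in all 5 of these somatic lists, and it was also the lowest wild-type sample in 5 of the 8 tested markers, namely Zbtb16, Ret, Etv5, Sall4 and Lin28a. Spermatocyte marker sums, led by Pgk2, overlapped at 1413 to 1625 and 1312 to 1731 CPM. Of the 6 spermatocyte markers, 2 were nevertheless called higher, Sycp1 from 62.5 ± 3.73 to 117 ± 22.3 CPM (SD, n = 3 each; edgeR adjusted p = 0.0214) and Mybl1 from 42 ± 3.3 to 68.6 ± 6.6 CPM (edgeR adjusted p = 0.028). With trends removed, edgeR called 0 genes in the spermatid, spermatocyte and Sertoli lists. The log2 fold changes of Sycp1, Mybl1, Prm1 and Tnp2 went from 0.90, 0.71, -0.66 and -0.63 to 0.43, 0.22, -0.37 and -0.14. The CPM sums were not corrected for these trends. General germ cell marker sums overlapped at 436.4 to 462.9 and 430.7 to 603.1 CPM. No gene of these lists was at 0 in every sample. The part of these differences in the marker values was not tested.

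**Figure D3:**
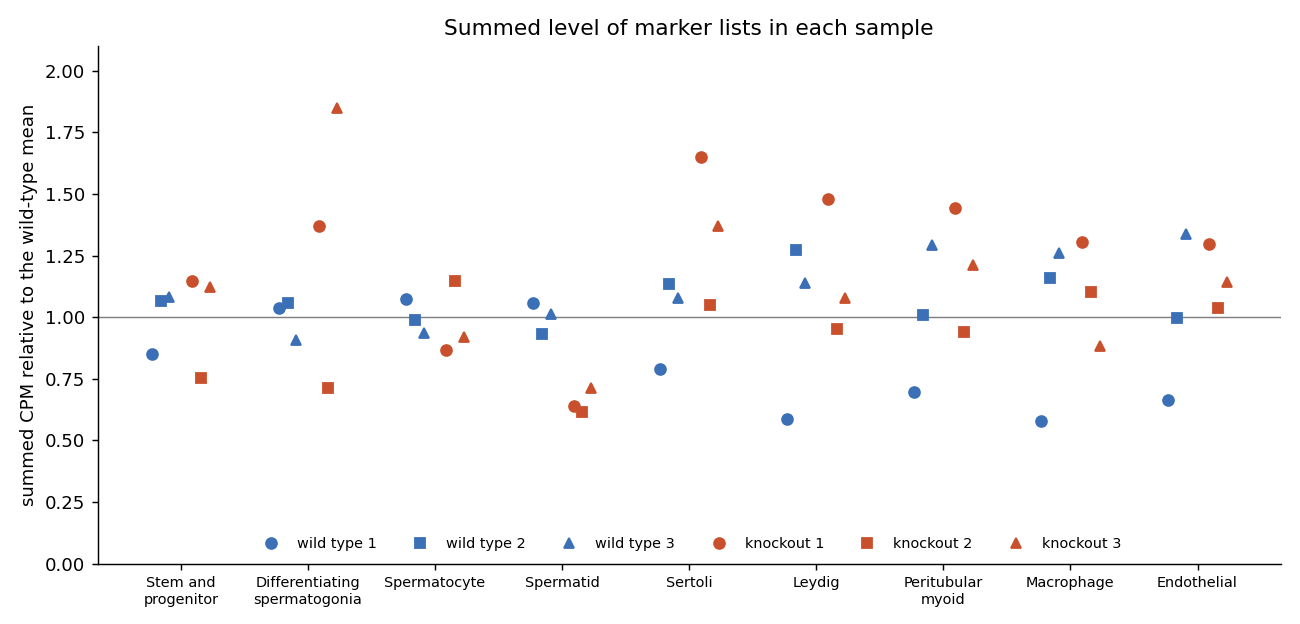
Summed CPM of each marker list in each sample, divided by the mean of the wild-type samples (vertical axis, linear), for wild type (blue) and knockout (orange). Most of the differentiating spermatogonia sum is 1 gene, Dmrtb1, at 950, 946 and 774 CPM in wild type and 1310, 556 and 1830 CPM in knockout. The spermatid sums of the knockout samples, carried by protamine and transition protein genes, lie at 0.617 to 0.713 of the wild-type mean, and the stem and progenitor marker sums at 0.754 to 1.15.

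The rest of the pathway was examined through 6 lists that hold 101 genes besides the markers, of which 89 passed the filter. Of these 89, 1 was called higher and 5 lower in knockout, against 3.11% and 5.12% of all genes tested. With trends removed, 0 of them passed in edgeR, and 16 of all genes did. Each of the 6 calls was also lost when wild type 1, wild type 2 or knockout 1 was left out, with adjusted p from 0.0596 to 0.173. Leaving out a library also leaves fewer samples for the test.

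Among 16 GDNF and niche signal genes, 14 were tested, 0 were called higher and 1 lower, with a median log2 fold change of 0.45 against -0.01 for all genes. At an unadjusted p under 0.05, 2 were higher and 2 lower, and DESeq2 called 0 higher and 2 lower. Median log2 fold changes of the somatic marker lists were 0.35 (Sertoli), 0.51 (Leydig), 0.19 (peritubular myoid), 0.18 (macrophage) and 0.66 (endothelial). The niche signal genes summed to 79.7, 131.8 and 144.6 CPM in wild type 1, 2 and 3 and 129.5 to 171.5 CPM in knockout. Wild type 1 was thus lowest here as in the somatic lists. Il11ra1, the interleukin 11 receptor, was called, falling from 8.82 ± 1.6 to 4.81 ± 0.38 CPM (SD, n = 3 each), with a log2 fold change of -0.87 (edgeR adjusted p = 0.0406, SE 0.21), and it shares exon bases with Ccl27a. Gdnf itself measured 1.06, 0.789 and 1.25 CPM in wild type and 2.39, 1.84 and 1.47 CPM in knockout. The knockout samples were all above the wild-type samples, but the log2 fold change of 0.89 (SE 0.32) had an edgeR adjusted p of 0.12. Fgfr3, a receptor for fibroblast growth factors, was at 3.23, 3.13 and 3.29 CPM in wild type and 1.79, 1.73 and 1.91 CPM in knockout. The groups did not overlap. Their spread, 2.45% and 5.01% of the mean, was below the 9.49% and 12.6% that counting alone gives. The log2 fold change of -0.83 (SE 0.23) missed the threshold in edgeR at 0.0594 and passed it in DESeq2 at 0.0481, adjusted. With trends removed Fgfr3 was at -0.45.

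Among 12 GDNF and FGF target genes, 10 were tested, and 0 were called higher and 1 lower, with a median of -0.14. At an unadjusted p under 0.05, 1 was higher and 2 lower, and DESeq2 called 1 in each direction. Egr4, a zinc-finger factor whose loss impairs male fertility in mice, was at 16.1, 13.4 and 15 CPM in wild type and 4.4, 4.22 and 6.51 CPM in knockout. It fell in every knockout sample below every wild-type sample, with a log2 fold change of -1.56 (edgeR adjusted p = 0.0161, SE 0.23). Its transcript has 68.2% GC, and with trends removed its log2 fold change was -0.99 (adjusted p = 0.0669, edgeR). Bcl6b, a repressor that GDNF induces together with Etv5, was at 6.18 ± 0.684 and 6.28 ± 1.74 CPM (SD, n = 3 each), and its log2 fold change of 0.02 (SE 0.26) lay beside the 0.07 of Etv5. Foxo1, a forkhead factor of stem cells, had a log2 fold change of 0.79 (SE 0.30), which DESeq2 called at an adjusted p of 0.0494 and edgeR did not at 0.132. Pou3f1 had a log2 fold change of -1.28 (edgeR adjusted p = 0.144, SE 0.51), and T, the brachyury gene, had 0 counts in every sample.

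Of 29 other genes of undifferentiated spermatogonia, 24 were tested, and 0 were called higher and 1 lower, with a median of -0.10. At an unadjusted p under 0.05, 2 were higher and 1 lower, while DESeq2 called 0 higher and 1 lower. The call was Dnd1, an RNA-binding partner of NANOS2 that protects germ cells. It measured 7.72, 7.05 and 9.5 CPM in wild type and 3.1, 3.94 and 3.29 CPM in knockout, at a log2 fold change of -1.23 (edgeR adjusted p = 0.0201, SE 0.22), and it shares exon bases with Wdr55. With trends removed it was at -0.99. Cdh1, which encodes E-cadherin of undifferentiated spermatogonia and of epithelia, had a log2 fold change of 1.44 (edgeR adjusted p = 0.0905, SE 0.47), and Taf4b, a germ cell cofactor of transcription, one of 0.48 (edgeR adjusted p = 0.122, SE 0.18). Pax7 and Pdx1 had at most 2 counts in any library.

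All 11 listed genes of differentiating spermatogonia were tested, and 0 were called higher and 1 lower, with a median of 0.04. Without adjustment 2 were higher and 2 lower at p under 0.05, and DESeq2 called 1 in each direction. Sohlh1, a helix-loop-helix factor that drives differentiation, fell from 3.14, 3.97 and 3.48 CPM in wild type to 1.14, 1.93 and 1.75 CPM in knockout, at a log2 fold change of -1.14 (edgeR adjusted p = 0.0423, SE 0.28). With trends removed it was at -0.64. Meioc, which acts at the entry to meiosis, had a log2 fold change of 0.58 (SE 0.15) that missed the threshold in edgeR at an adjusted p of 0.0533 and passed it in DESeq2 at 0.00864, and with trends removed it was at 0.14. Its partner Ythdc2 had 0.36 (SE 0.16) and 0.00. Kit, the receptor that marks differentiating cells, had a log2 fold change of 0.60 (edgeR adjusted p = 0.216, SE 0.28).

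Paralogs give a view of each marker against its own family. Of 19 paralogs, 16 were tested, and 0 were called higher and 1 lower, with a median of 0.01 (3 higher and 1 lower at an unadjusted p under 0.05, and 1 in each direction by DESeq2). The call was Gfra4, the co-receptor for persephin, with 28.3, 22.6 and 24.5 CPM in wild type and 6.03, 11.5 and 6.98 CPM in knockout. The groups were apart, and the log2 fold change was -1.62 (edgeR adjusted p = 0.0168, SE 0.26), or -0.99 (edgeR adjusted p = 0.153) with trends removed. In wild type Gfra4 stood at 11.6 ± 1.35 and Gfra2, the neurturin co-receptor, at 7.21 ± 0.493 CPM per kilobase (SD, n = 3), both above the 1.29 ± 0.336 of Gfra1. Gfra2 was at 23.6, 26 and 27 CPM in wild type and 40.7, 22.7 and 48.8 CPM in knockout, at a log2 fold change of 0.55 (edgeR adjusted p = 0.211, SE 0.26). Knockout 2 was the lowest of the 6 samples, but only just below wild type 1, unlike the far lower value of Gfra1 in knockout 2.

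For the ETS family, Etv1 had a log2 fold change of 0.85 (SE 0.30), called by DESeq2 at an adjusted p of 0.0438 and not by edgeR at 0.113, and Etv4 one of 0.02 (SE 0.47). Etv1 and Etv4 stood at 0.291 ± 0.07 and 0.209 ± 0.0826 CPM per kilobase in wild type (SD, n = 3), well below Etv5. Id2 was at 1.67, 3.82 and 3.02 CPM in wild type and 5.6, 4.68 and 4.97 CPM in knockout, with no overlap and a log2 fold change of 0.84 (edgeR adjusted p = 0.123, SE 0.31). Lin28b, the paralog with the same activity towards let-7, was at 4.08, 3.84 and 5.52 CPM in wild type and 5.22, 7.17 and 3.66 CPM in knockout, with overlapping groups and a log2 fold change of 0.26 (edgeR adjusted p = 0.608, SE 0.29).

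All 14 partners of the markers were tested, and 1 was called higher and 0 lower, with a median of 0.23 (2 higher and 1 lower at an unadjusted p under 0.05, and 1 higher and 0 lower by DESeq2). The call was Tut4, the enzyme that adds uridines to let-7 precursors held by LIN28A. It rose from 24.9, 37.1 and 37.5 CPM in wild type to 78.3, 54 and 69.1 CPM in knockout, with no overlap and a log2 fold change of 1.02 (edgeR adjusted p = 0.0275, SE 0.21). Its transcript has 40.2% GC, and with trends removed the log2 fold change was 0.62 (adjusted p = 0.119, edgeR). Its relative Tut7 had a log2 fold change of 0.41 (edgeR adjusted p = 0.115, SE 0.15). Mta2, a subunit of the repressor complex that SALL4 recruits, had one of -0.32 (edgeR adjusted p = 0.171, SE 0.14).

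**Figure D4:**
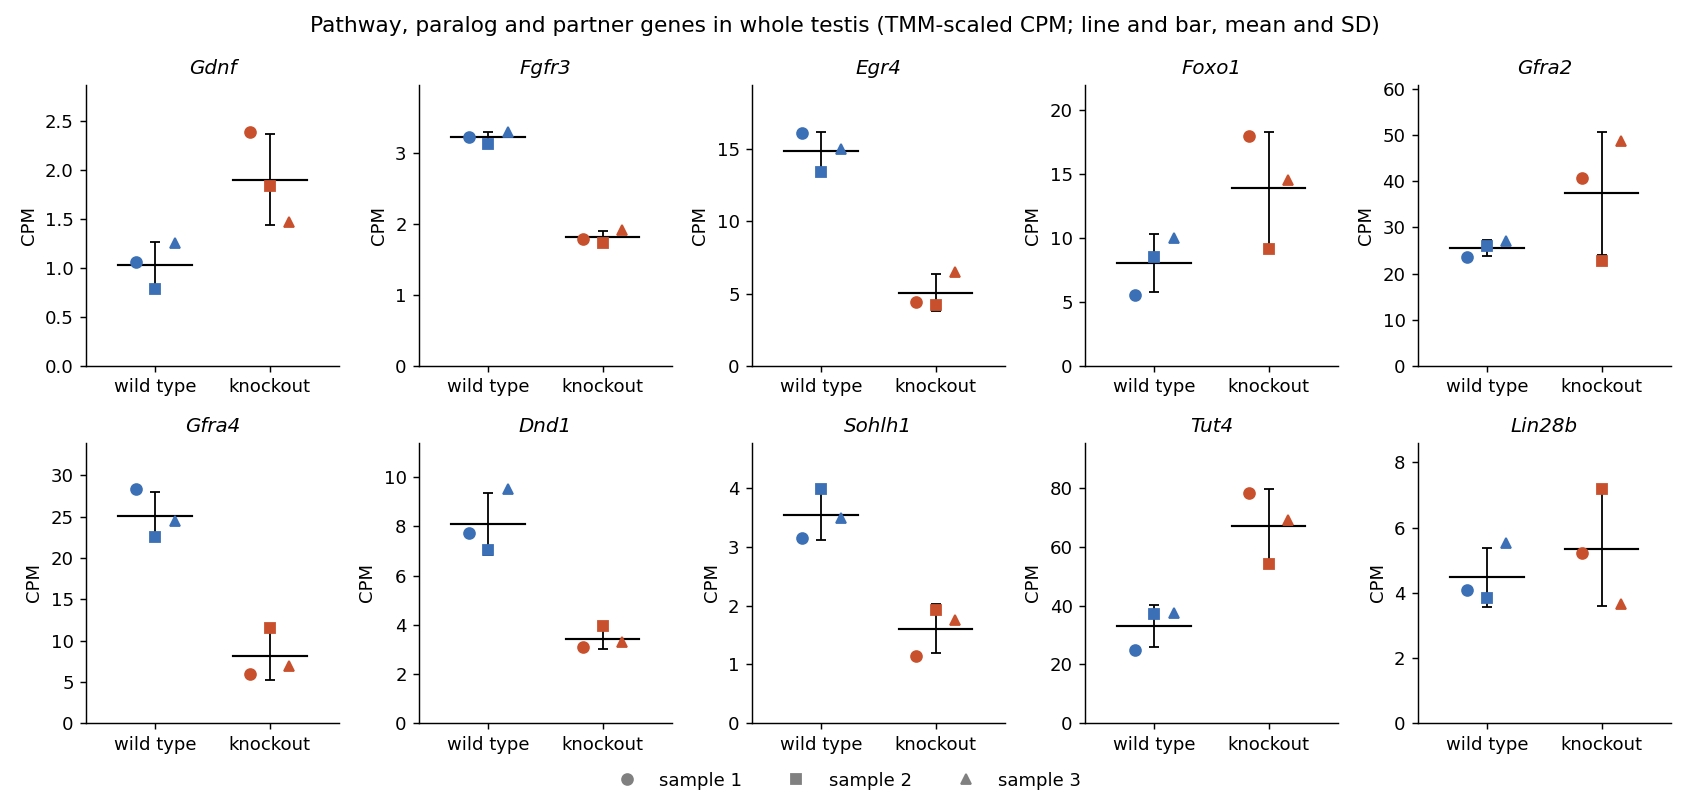
TMM-scaled CPM (vertical axes, linear from 0) of 10 pathway, paralog and partner genes in each wild-type (blue) and knockout (orange) sample, with a line at the mean and a bar of 1 SD. The groups are apart for Gdnf, Fgfr3, Egr4, Gfra4, Dnd1, Sohlh1 and Tut4 and overlap for Foxo1, Gfra2 and Lin28b.

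The let-7 microRNAs on which LIN28A and TUT4 act are shown because Lin28a and Tut4 had log2 fold changes of opposite sign, of which only that of Tut4 passed the test. LIN28A is known to bind the letters GGAG in the precursor. From RefSeq sequences, 8 mature let-7 strands of the 5p arm share the seed GAGGUAG (bases 2 to 8), in capitals in the let-7g strand, and in the hairpins of Mirlet7g (chr9:106178840-106178927, plus strand, GRCm38.p6) and Mirlet7b (chr15:85707319-85707403, plus strand) capitals mark GGAG.
mmu-let-7g-5p: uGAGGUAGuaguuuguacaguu
Mirlet7g: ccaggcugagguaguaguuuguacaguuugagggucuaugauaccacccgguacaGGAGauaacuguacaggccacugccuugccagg
Mirlet7b: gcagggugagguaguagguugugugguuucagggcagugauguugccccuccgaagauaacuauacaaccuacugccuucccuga
Of 11 let-7 hairpins, 9 hold GGAG (81.8%), against 447 of 1005 mouse hairpins (44.5%), and that of Mirlet7b is 1 of the others. The let-7 genes had 0 to 2 counts in each library, and mature microRNAs were not measured here.

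The genes of the 6 lists whose pattern over the 6 samples was most like that of Gfra1 were Utf1, Sox3 and Foxc2, by the root mean square difference of log2 levels centred on each gene's mean (0.36, 0.57 and 0.60, with a median of 1.04 over 89 genes). Utf1, a chromatin factor of undifferentiated spermatogonia, was at 1.94, 2.09 and 2.17 CPM in wild type and 1.41, 0.397 and 2.13 CPM in knockout. Sox3, a transcription factor of progenitors, was at 3.88, 5.06 and 4.96 CPM in wild type and 3.59, 1.59 and 3.5 CPM in knockout. Foxc2, a factor of quiescent stem cells, was at 0.352, 0.458 and 0.164 CPM in wild type and 0.543, 0.113 and 0.344 CPM in knockout. These 3 were chosen for their likeness to Gfra1, so their low values in knockout 2 are no separate observation, and Foxc2 had only 4 to 20 counts per library. The genes most like Zbtb16 were Igf1r, Kdm1b and Glis3 (0.28, 0.30 and 0.31, with a median of 0.50).

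**Figure D5:**
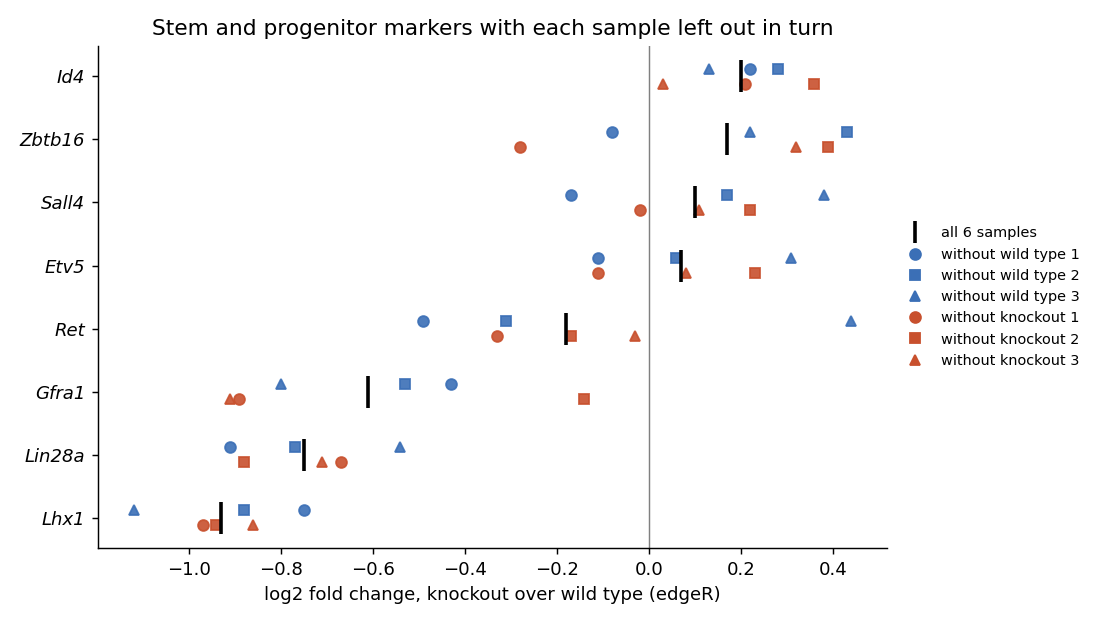
Log2 fold change of each tested marker, knockout over wild type (horizontal axis), from all 6 samples and with each sample left out in turn. Lhx1 (-1.12 to -0.75) and Lin28a (-0.91 to -0.54) stay below 0 throughout, Gfra1 moves to -0.14 without knockout 2, and Zbtb16, Ret, Etv5 and Sall4 cross 0.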

How the data were processed

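Gene counts were measured by bulk RNA sequencing of whole testis in 3 wild-type and 3 KIFC1 knockout samples. Per the labels' protocols, libraries were made with an mRNA kit. Per the submitters' processing notes, Trimmomatic, HISAT2, HTSeq and the build mm10 were used. The sources used here do not give the annotation release or the strand setting of the counting. The authors deposited raw counts of reads per gene in 1 file for each sample, in whole numbers without normalization, for 51826 Ensembl identifiers and 0 rows naming no gene. Library totals ran from 29274603 to 38703606 counts, and floors and counting errors cover counting error only.

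GENCODE release M21 gave symbols for 51633 identifiers. CPM values are TMM-scaled. edgeR 4.0.16 (R 4.3.3) tested 21518 genes that passed filterByExpr with its quasi-likelihood test, 2-sided, with Benjamini-Hochberg adjustment over all of them and a threshold of 0.05. Log2 fold changes are those of the fit, with the SE taken from the F statistic. Nanos2 and Neurog3 did not pass the filter. The labels do not state separate animals, so the spread behind the p-values may be technical. No pair of replicates agreed within sampling noise. Alternatives were DESeq2 1.42.0 (size factors, Wald test), library size alone, no filter, at least 1 CPM in 3 samples, offsets for trends in GC content and exon length (splines of 5 degrees of freedom over the 12761 genes whose mean log2 CPM exceeds 2, prior count 2), a replicate block, the block with the offsets, no mitochondrial genes, and each sample left out. The fit was first checked on simulated counts.

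The 10 markers, the 6 related lists and the lists of other cell types were chosen with earlier results of these data known. Named related genes were every called gene of a list, its 3 tested genes with the smallest p, paralogs by level, and the 3 genes most like Gfra1 and Zbtb16. Bcl6b, Kit, T, Pax7, Pdx1, Dmrtb1 and the marker genes named beside the leading gene of a list were named after their values were seen. The result of 1 further marker list is not reported here.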

Additional observations from a re-analysis of the deposited data

How the results depend on the processing

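The count of markers called was 0 under all 15 alternatives. The count of all genes called, 1770 of 21518, was 1010 with no filter, 3274 with the DESeq2 Wald test and 16 with the GC and length offsets, and 1 to 3149 with a sample left out (5, 1 and 425 without wild type 1, 2 and 3, and 1, 3149 and 327 without knockout 1, 2 and 3), while it stayed within 1.5 times under the other scalings, the 1 CPM filter and the removal of mitochondrial genes. The 6 related lists, with 1 call each, had 0 calls each with the offsets. Calls among differentiating genes were 2 with DESeq2 size factors, the 1 CPM filter, the DESeq2 Wald test or no mitochondrial genes, and 0 with library size alone or no filter. Niche signals had 0 calls with no filter and 2 with the DESeq2 Wald test, and targets and paralogs had 2 with the latter. With a sample left out, calls ran from 0 to 0 for niche signals, 0 to 2 for targets, 0 to 1 for other undifferentiated genes, 0 to 2 for differentiating genes, 0 to 3 for paralogs and 0 to 4 for partners.

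Signs turned for Ret with the offsets (0.02), and with samples left out, where log2 fold changes ran from -0.49 to 0.44 for Ret (0.44 without wild type 3), -0.28 to 0.43 for Zbtb16 (-0.08 without wild type 1 and -0.28 without knockout 1), -0.11 to 0.31 for Etv5 (-0.11 without wild type 1 and likewise without knockout 1) and -0.17 to 0.38 for Sall4 (-0.17 without wild type 1 and -0.02 without knockout 1). Gfra1, Lin28a, Lhx1 and Id4 kept their sign with each sample left out. Ret was not tested under the 1 CPM filter.

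Samples share a replicate number across groups, and same-numbered samples had correlations of -0.47, -0.12 and -0.14 between their deviations over 12761 genes, so the number was not taken as a pairing. With the replicate block 21 genes were called, and 5 with the block and the offsets, with 0 calls in each of the 6 lists under both. The block with the offsets turned the sign of Ret (0.14) and Id4 (-0.03). The causes of these shifts were not tested. Nanos2 and Neurog3 had at most 7 counts in any library.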
